A study of Mus musculus with 24 samples.

Results

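The genes described here are 10 genes of myostatin and activin signalling and of muscle secretion: Mstn, Inhbb, Acvr2a, Acvr2b, Fst, Fstl3, Fstl1, Fndc5, Metrnl and Il15. They were chosen by name, through the Ensembl identifier that carries each symbol, out of 55401 genes in the count data, and all 10 were found. Poly-adenylated RNA of the gastrocnemius, a calf muscle of mixed fibre types, was sequenced in 12 male C57BL6 mice. They were obtained at 4 weeks of age (young) or 10 weeks (adult) and acclimated for 1 week, which made them 5 and 11 weeks old at the procedure, and muscle was taken 24 h after it. Each group held 3 mice: sham and burned young mice (YS and YB), and sham and burned adults (AS and AB). Burned mice received a full-thickness scald over 25% of the body surface, with Ringer's solution for resuscitation. Sham mice had the same isoflurane anaesthesia and buprenorphine but neither burn nor resuscitation, so burn and fluid cannot be told apart here. The question was whether the genes differed with age, with burn, and whether the burn response differed with age.

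Myostatin, the product of Mstn, is a secreted factor of the TGF-beta family made by muscle fibres that restrains muscle growth. Like the activins it binds the type II receptors encoded by Acvr2a and Acvr2b, which with a type I receptor lead to phosphorylation of SMAD2 and SMAD3. Follistatin (Fst) and the related Fstl3 bind these ligands outside the cell and block them. Fndc5 encodes the membrane precursor of irisin, and Metrnl, Il15 and Fstl1 encode other proteins that muscle can release, which are together called myokines.

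Start regions of the 10 genes were looked up in RefSeq (GRCm38.p6, from 250 bases before to 50 bases after the start), and 8 matched. Those of Mstn, Fndc5 and Fstl1 are printed because Mstn is the ligand at the centre of the pathway while Fndc5 had the smallest p of the 9 tested for adult burn and Fstl1 the smallest between the sham groups. They lie on the + strand, at chr1:53061390-53061689, chr4:129136749-129137048 and chr16:37776805-37777104. Capitals mark every match, on either strand, to the motifs searched. The TATA box was searched as TATAAA and the GC box by the letters GGGCGG. The E-box was any CANNTG, and for the SMAD box the letters CAGAC were used.
Mstn: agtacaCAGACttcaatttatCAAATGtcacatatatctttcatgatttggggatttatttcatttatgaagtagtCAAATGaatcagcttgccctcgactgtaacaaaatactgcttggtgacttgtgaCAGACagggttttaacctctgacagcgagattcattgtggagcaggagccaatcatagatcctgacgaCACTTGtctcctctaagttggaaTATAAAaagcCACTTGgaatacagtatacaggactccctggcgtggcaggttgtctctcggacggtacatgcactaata
Fndc5: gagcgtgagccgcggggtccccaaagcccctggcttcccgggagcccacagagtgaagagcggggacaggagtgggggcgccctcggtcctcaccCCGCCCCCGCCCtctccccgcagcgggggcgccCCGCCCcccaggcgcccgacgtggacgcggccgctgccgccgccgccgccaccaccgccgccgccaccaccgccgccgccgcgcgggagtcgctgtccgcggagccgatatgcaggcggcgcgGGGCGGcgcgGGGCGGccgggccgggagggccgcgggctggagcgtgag
Fstl1: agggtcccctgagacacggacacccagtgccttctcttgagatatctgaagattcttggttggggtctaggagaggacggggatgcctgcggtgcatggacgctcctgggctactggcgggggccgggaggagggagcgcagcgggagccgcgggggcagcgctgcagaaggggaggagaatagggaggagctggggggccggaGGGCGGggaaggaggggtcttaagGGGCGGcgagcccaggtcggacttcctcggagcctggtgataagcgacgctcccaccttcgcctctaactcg
The Mstn window held 1 TATA box, beginning 29 bases before the start, with 4 E-boxes and 2 SMAD boxes and no GC box, and 41.3% of its bases were G or C. The Fndc5 window held 5 GC boxes and none of the other motifs at a GC content of 82.3%, and the Fstl1 window held 2 GC boxes at 66.7%. The marked motifs did not overlap each other in these windows. Over all 32851 start windows the median GC content was 52.7%, and 13.6% held the TATA box, 35.7% the GC box, 72.3% the E-box and 49.6% the SMAD box. Of the other 5 windows, Fstl3 held a TATA box as well. An ERR half-site, AAGGTCA, was found in none of the 8 windows and in 4.72% of all windows, and the glucocorticoid receptor half-site AGAACA was found in those of Inhbb and Fstl3 and in 19% of all windows. These matches are descriptions of the letters only.

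Total counts ran from 4392605 to 5688512 per library, and the mitochondrial share of counts from 7.64% to 15.1%. YB replicate 2 stood apart from its group, with a mean correlation of 0.941 to the other YB libraries, against 0.96 or more for every other library with its own group. The study's heat map leaves 1 YB animal out and shows YB replicates 1 and 3. Accordingly, values here rest on 11 libraries without YB replicate 2, and values with it are given beside those of the 10 genes and of the gene lists where it ends a call. A summed level of 8 genes of fast muscle fibres, such as Acta1 and Ckm, ran from 126000 to 210000 CPM, counts scaled to a common library size, in the 11 libraries and was 103000 in YB replicate 2. In bulk tissue, fewer cells of a type and less RNA per cell cannot be told apart.

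Levels per gene length spanned a wide range. On the scale of CPM per kilobase of exon, averaged over the 11 mice, the order was Fstl1 (65.6), Mstn (54.3), Fndc5 (27), Acvr2a (9.84), Metrnl (9.66), Fst (5.2), Il15 (2.74), Acvr2b (2.48), Inhbb (0.622) and Fstl3 (0.14). Fstl1 stood at the 94.6th percentile of tested protein-coding genes, Mstn at the 93.6th and Inhbb at the 8.94th. Neighbours in this order overlapped over the mice, except that Fndc5, at 14.2 or more, lay above Acvr2a, at 12.9 or less, and Acvr2b, at 1.45 or more, lay above Inhbb, at 0.906 or less. Acvr2a and Metrnl were indistinguishable in level, with ranges of 7.22 to 12.9 and 5.5 to 13.5.

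**Figure D1:**
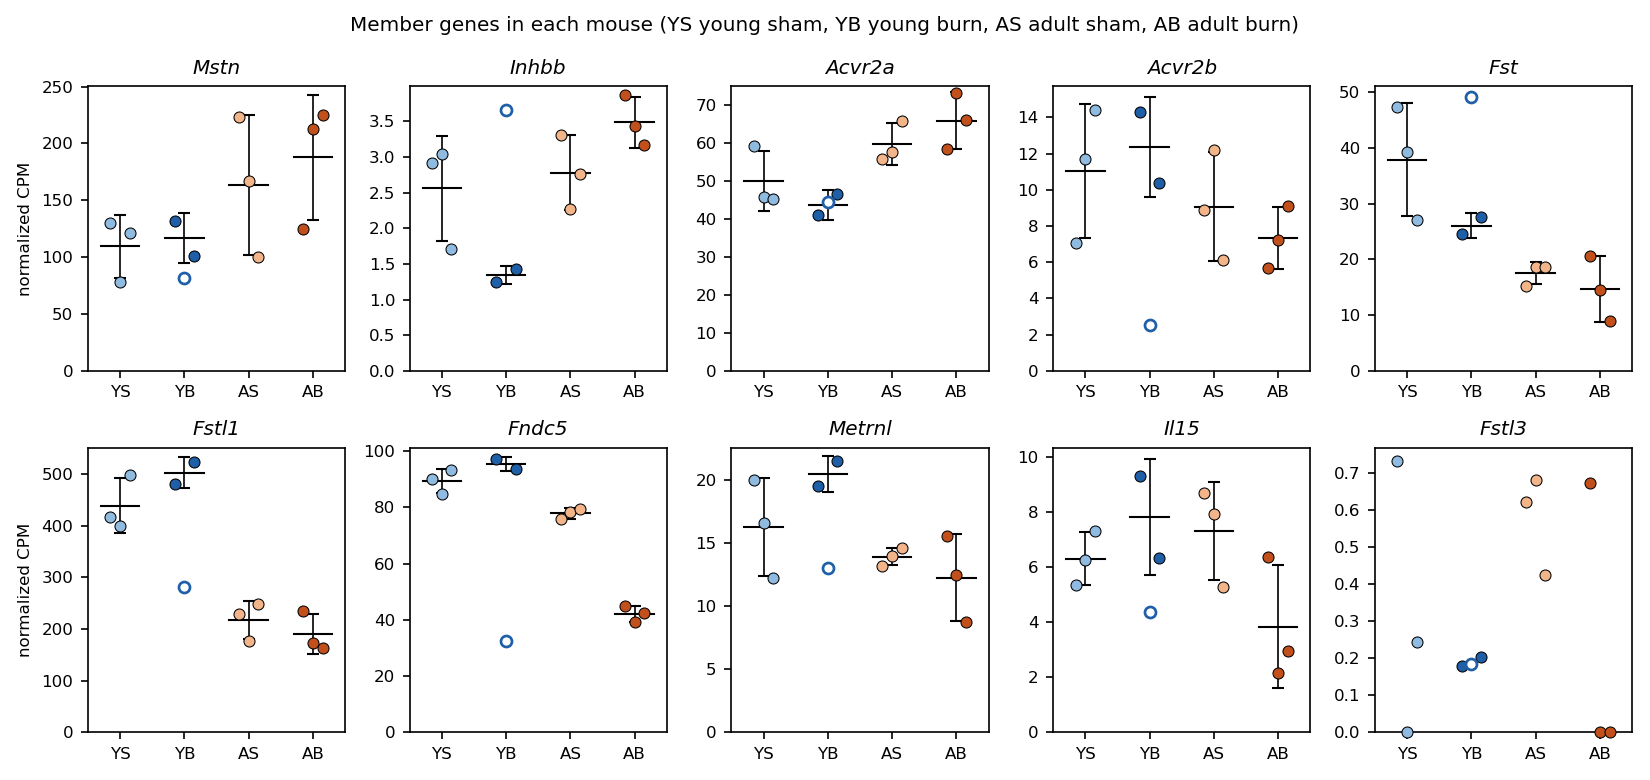
Normalized CPM (vertical axes, from 0) of the 10 genes in each of 12 mice by group. Points are mice, lines and bars are the mean and SD of the 11 libraries used, open circles mark YB replicate 2, and no mean is drawn for Fstl3, which has 0 to 4 counts per library. Fndc5 was low in AB and in the open circle, and Fst and Fstl1 were higher in young than in adult sham mice.

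The filter on low counts kept 9 of the 10 genes, all but Fstl3, among 12651 genes tested by edgeR's quasi-likelihood test with Benjamini-Hochberg adjustment. Between the sham groups, 2 of 9 passed at an adjusted p under 0.05, Fst and Fstl1, both higher in YS, where 11.8% of all tested genes passed in either direction. Adult burn changed 1 of 9, Fndc5, which fell, against a background of 0.909%. Young burn changed 0 of 9, against 0.664% of all genes, with 1 of 9 at an unadjusted p under 0.05, and DESeq2 also called 0. Between the burned groups 6 of 9 passed, 4 higher and 2 lower in YB, against 20.7% of all genes, 11.2% higher and 9.54% lower. The burn by age interaction, the difference between the burn changes of young and adult mice, called Fndc5 alone, against 0.0949%. A burn term fitted beside age called 0 of 9 in edgeR and in DESeq2, against 2.15% of all genes (0.717% with all 12 libraries), with 2 at an unadjusted p under 0.05: Fndc5 at a log2 change of -0.42 ± 0.14 (SE, adjusted p = 0.142, but 0.0022 without the filter on low counts) and Fst at -0.39 ± 0.18 (adjusted p = 0.291). These comparisons share groups, so they are not independent of each other.

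With YB replicate 2 included, the counts of called genes were 1, 0, 0 and 3 in the same order for the 4 comparisons of groups, and 0 for the interaction and the burn term. At an unadjusted p under 0.05 there were 2 of 9 in AB against AS, 0 in YB against YS, 0 for the interaction and 1 for the burn term, and DESeq2 called 0 in each of these. The background was then 3.76%, 0.00806%, 0.0645% and 10.8%, and 0% for the interaction. In adult burn against adult sham this library is in neither group, and the Fndc5 change stayed at -0.88 while its SE rose to 0.28, because all groups share 1 estimate of spread.

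**Figure D2:**
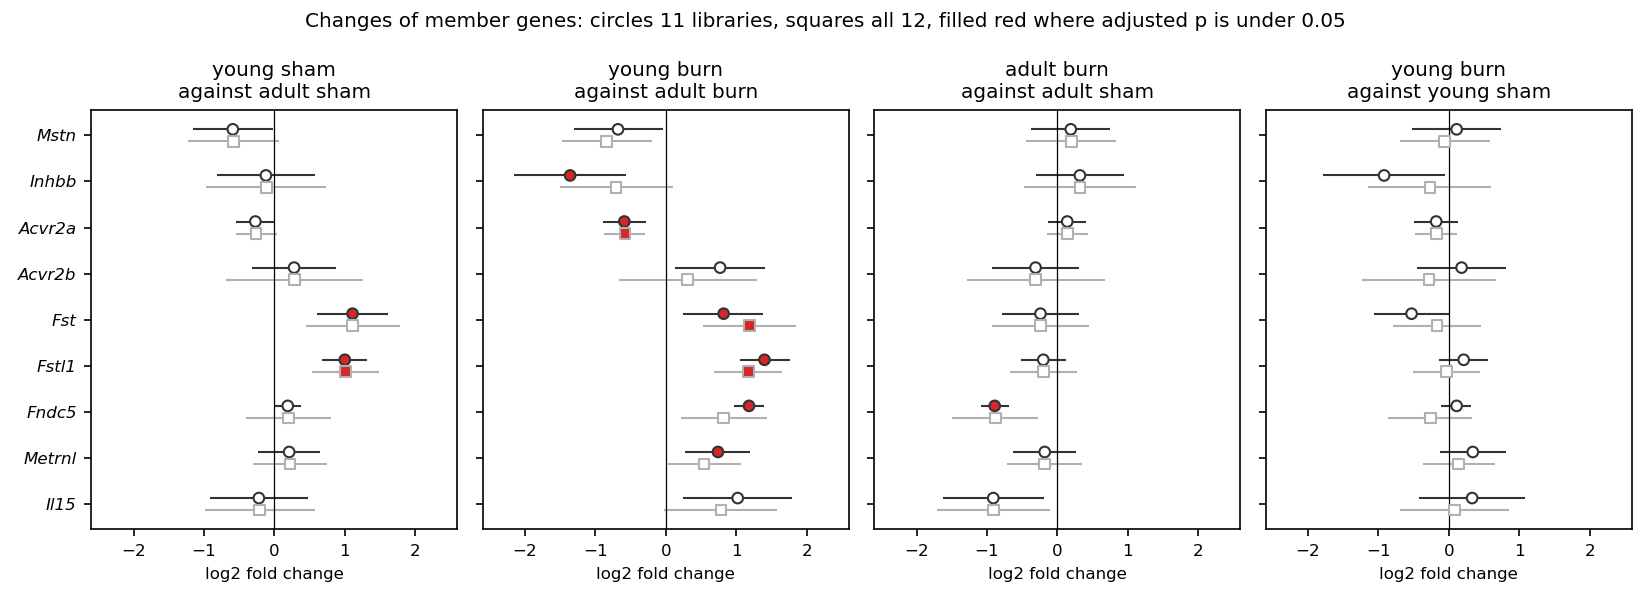
Log2 fold changes (horizontal axes) with 95% intervals of the 9 tested genes in 4 comparisons. Circles are the fit of 11 libraries and squares that of all 12, with red fill at an adjusted p under 0.05; Fstl1 is red in both fits of both age comparisons, and the Fndc5 circle at -0.89 in adult burn is red only in the 11 libraries.

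Of the ligands, Mstn (ENSMUSG00000026100.6, whole gene on GRCm38 at chr1:53061640-53068079) did not pass in any of the 6 tests of the 11 libraries. Its normalized level was 130, 78.2 and 121 CPM in the 3 YS mice, 132 and 101 in YB replicates 1 and 3, 223, 167 and 100 in AS, and 125, 213 and 225 in AB. Both adult groups reached above 200 CPM while no young mouse exceeded 132, but each adult group also held a mouse inside the young range, so the groups overlapped. YS was at a log2 difference of -0.59 to AS (95% interval -1.16 to -0.02, adjusted p = 0.164), and YB at -0.68 to AB (-1.31 to -0.04, adjusted p = 0.119). Without AS replicate 3, the lowest AS mouse, the sham difference was -0.85 at an adjusted p of 0.04, and without AB replicate 1, the lowest AB mouse, the burn-group difference was -0.90 at 0.0394. Over the fits that each leave out 1 library the first ran from -0.85 to -0.29 and the second from -0.90 to -0.50. Without the filter on low counts both differences passed at nearly the same size, -0.63 and -0.72 (adjusted p = 2.5e-05 and 1.03e-05). The second also passed when the burned groups were fitted alone (0.036). In the fit without that filter 9 of the 10 genes passed in YB against AB, where 10.1% of 28070 genes passed. DESeq2 on the 11 libraries called neither difference of Mstn (adjusted p = 0.362 and 0.256). The change with burn was 0.19 in adults (-0.37 to 0.75) and 0.11 in young mice (-0.53 to 0.74). YB replicate 2 had 81.6 CPM, and with all 12 libraries the age differences were -0.58 and -0.84 (adjusted p = 0.297 and 0.0861).

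Inhbb (ENSMUSG00000037035.5, chr1:119415465-119422248), which encodes the beta B subunit of activin B, was a low gene with 166 counts in all 12 libraries. It lay at 2.92, 3.04 and 1.71 CPM in YS, 1.25 and 1.43 in YB, 3.31, 2.27 and 2.76 in AS, and 3.86, 3.43 and 3.16 in AB. Both YB mice lay below every other mouse of the 11, and the YB group rests on 14 counts. Over all tested genes YB lay below AB without overlap in 26.6% and above it in 26.6%. YB was lower than AB by a log2 value of -1.36 ± 0.38 (SE, adjusted p = 0.0203). YB against YS was -0.92 ± 0.41 and did not pass (adjusted p = 0.28). The left-out YB replicate 2 had 3.65 CPM, above every sham mouse, and with it the YB to AB difference was -0.71 (adjusted p = 0.23). In DESeq2 on the 11 libraries that difference was -1.38 at an adjusted p of 0.0691. The call also ended without YB replicate 1 (adjusted p = 0.141) and without YB replicate 3 (0.091), each of which leaves 1 YB mouse.

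Of the type II receptors, Acvr2a (ENSMUSG00000052155.5, chr2:48814109-48903269) was lower in burned young than in burned adult mice. Its levels were 59.2, 45.8 and 45.3 CPM in YS, 41 and 46.6 in YB, 55.8, 57.6 and 66 in AS, and 58.5, 73.4 and 66.1 in AB. Every AB mouse lay above every YB mouse, as in 26.6% of all tested genes, while 1 YS mouse reached into the AS range. The YB to AB difference was -0.59 ± 0.14 (SE), 1.5-fold lower, at an adjusted p of 0.0107, and it was -0.58 with YB replicate 2, which had 44.6 CPM (adjusted p = 0.0182). Without YB replicate 1 it was -0.50 at an adjusted p of 0.118. The sham difference, -0.27 ± 0.13, did not pass (adjusted p = 0.19), but it was -0.40 at 0.0444 without YS replicate 1. The span of Acvr2a overlaps that of Orc4 on the other strand, with 2352 counts in all 12 libraries against 3302 for Acvr2a. Exons were not compared, and the sources used here do not give the strand of the counting.

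Acvr2b (ENSMUSG00000061393.14, chr9:119402118-119434995), the receptor with the higher affinity for myostatin, passed no test. It stood at 7.06, 11.7 and 14.4 CPM in YS, 14.3 and 10.4 in YB, 8.89, 12.2 and 6.15 in AS, and 5.7, 7.23 and 9.1 in AB. The YB mice lay above the AB mice, as in 26.6% of all tested genes, at a log2 difference of 0.77 ± 0.30 (adjusted p = 0.0822). YB replicate 2, at 2.56 CPM, lay below all others. With it the difference was 0.31. In the 11 libraries it passed without the filter on low counts (0.0224) and with the burned groups fitted alone (0.0442), but not in DESeq2 (0.111). The antisense gene Gm47320, whose span overlaps on the other strand, had 253 counts against 540 for Acvr2b. Without a stated strand or a comparison of exons it cannot be told whether they share reads. Per length, Acvr2a exceeded Acvr2b in each library, by 1.98-fold to 7.41-fold in the 11 and by 12-fold in YB replicate 2.

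Of the ligand inhibitors, Fst (ENSMUSG00000021765.9, chr13:114452290-114458951) was higher in young muscle. Its level was 47.3, 39.3 and 27.1 CPM in YS, 24.5 and 27.6 in YB, 15.3, 18.6 and 18.7 in AS, and 20.6, 14.6 and 8.91 in AB. All young mice lay above all adult mice, and YS varied most. YS was 2.15-fold higher than AS, a log2 difference of 1.11 ± 0.24 (SE, adjusted p = 0.00876), and groups did not overlap in this direction in 15.7% of all tested genes. Every leave-one-out value of this difference kept its call, with adjusted p from 0.00298 to 0.0401, but in the fit with YB replicate 2 it was 0.0616. YB was 1.76-fold higher than AB, at 0.82 ± 0.26 (adjusted p = 0.0405). That call ended without YB replicate 1 (0.118), without YB replicate 3 (0.194), without AB replicate 2 (0.0929), without AB replicate 3 (0.119) and under library size alone (0.0611). With YB replicate 2, which had 49.1 CPM, more than any other mouse, the difference was 1.19 at an adjusted p of 0.0271.

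Young burn against young sham was -0.53 ± 0.25 for Fst (adjusted p = 0.318). As a description, the ratio of Mstn to Fst per length was 3.38 to 7.6 in YS, 6.21 and 9.15 in YB, 9.12 to 24.8 in AS and 10.3 to 42.8 in AB, and 2.82 in YB replicate 2. The ratio in adult mice thus began near the highest young value.

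Fstl3 (ENSMUSG00000020325.10, chr10:79777272-79782630) had 19 counts in all 12 libraries, 0 to 4 in each. It had 4 counts in YS, 3 in YB with replicate 2, 8 in AS and 4 in AB, and it overlaps Prss57, with 12 counts, on the other strand. A difference was not detectable at this depth.

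Fstl1 (ENSMUSG00000022816.11, chr16:37776873-37836514) encodes a secreted glycoprotein that shares a follistatin-like domain with Fst but is better known as a product of stromal cells, muscle and heart. It had 418, 399 and 499 CPM in YS, 482 and 524 in YB, 230, 177 and 248 in AS, and 235, 173 and 164 in AB. Every young mouse of the 11 lay above every adult mouse, and YB replicate 2, at 281 CPM, lay between them. YS was 2-fold higher than AS, at 1.00 ± 0.15 (SE, adjusted p = 0.00116), and YB was 2.65-fold higher than AB, at 1.40 ± 0.17 (adjusted p = 0.000146). Both calls held in all 21 alternatives, the second with values from 1.17 to 1.59. Burn changed it by 0.21 in young mice (-0.14 to 0.56) and by -0.20 in adults (-0.52 to 0.12), and the interaction, 0.41 ± 0.22, did not pass (adjusted p = 0.516).

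A fibroblast and progenitor list was higher in young muscle, as Fst and Fstl1 were, with the largest differences in its collagen genes. For the lists given here, 11.8% of all tested genes passed in YS against AS and 20.7% in YB against AB. With all 12 libraries these shares were 3.76% and 10.8%. Its summed level of 8 genes ran from 8220 to 9260 CPM in YS, 7440 to 9480 in YB, 3030 to 4190 in AS and 3060 to 4080 in AB, and was 7170 in YB replicate 2, and none of the 8 was at 0. In YS against AS 3 of 8 rose (Col1a1 by 2.21, Col1a2 by 1.92 and Col3a1 by 1.73 on the log2 scale) and 0 fell, while the list median was 0.48. These collagen genes carried most of the difference in the sum. Col1a2 averaged 2300 CPM in YS and 604 in AS, while Dcn averaged 1990 and 1660 and Pdgfra 83.3 and 69.4. In YB against AB 6 of 8 were higher, or 4 with all 12 libraries, and the list median was 1.08 in the 11 libraries. Lists of 6 endothelial and 6 Schwann cell genes were also higher in young muscle, with 393 to 519 and 190 to 334 CPM in YS, 443 to 532 and 207 to 351 in YB, 332 to 367 and 144 to 166 in AS, and 306 to 340 and 120 to 165 in AB. YB replicate 2 had 414 and 142 CPM, the second within the adult range. Of the endothelial genes 2 passed in YS against AS and 4 in YB against AB, all higher, or 1 and 2 with all 12 libraries. Of the Schwann cell genes 3 and 4 passed, all higher, but 0 and 0 with all 12, where 4 had an unadjusted p under 0.05 in each comparison and DESeq2 called 0 and 2. Satellite cell and tenocyte lists of 5 and 7 genes summed to 86.1 to 105 and 463 to 485 CPM in YS. In AS they summed to 56.2 to 70 and 173 to 414 CPM. The sums were 65.6 to 86.2 and 153 to 286 CPM in YB, and 57.7 to 65.4 and 163 to 274 in AB. YB replicate 2 had 67.7 and 207 CPM. Of their genes 2 and 2 passed in YS against AS, all higher, or 2 and 1 with all 12 libraries. In YB against AB 1 and 0 passed in either set of libraries. None of these genes was at 0. The part of these cells in the Fst and Fstl1 differences was not tested.

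Of the myokines, Fndc5 (ENSMUSG00000001334.9, chr4:129136999-129144593) fell after burn in adult muscle. It had 90.1, 84.7 and 93.4 CPM in YS, 97.3 and 93.8 in YB, 75.9, 78.2 and 79.5 in AS, and 44.8, 39.2 and 42.5 in AB. Mice within a group lay close together, with SDs of 1.84 to 4.4 CPM, and every AB mouse lay below every other mouse of the 11. AB was 1.85-fold lower than AS, at a log2 change of -0.89 ± 0.09 (SE, adjusted p = 0.000459). AB did not overlap AS in this direction in 9.76% of all tested genes. The change was -0.83 to -0.94 when each library was left out in turn, with adjusted p from 0.000632 to 0.0054, and it was -0.88 at an adjusted p of 9.31e-10 in DESeq2. With YB replicate 2 in the fit the adjusted p was 0.603, and 0.356 in DESeq2. With AB and AS fitted alone in edgeR the change was -0.89 at an adjusted p of 0.00345.

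In young mice the change of Fndc5 with burn was 0.11 ± 0.10 (95% interval -0.11 to 0.32, adjusted p = 0.645), and both YB mice lay just above the YS mice. YB lay above YS without overlap in 16.7% of all tested genes. The interaction was 1.00 ± 0.14 (SE, adjusted p = 0.0118). With the replicate number as a block it was 0.97 at an adjusted p of 0.0507, which ended the call. The result also depends on the excluded mouse. YB replicate 2 had 32.5 CPM, below every AB mouse, and with it the change in young mice was -0.26, and the interaction was 0.62 ± 0.40 with an adjusted p of 0.744. Leaving out YB replicate 1 instead gave 0.97 at an adjusted p of 0.125, and the other 10 leave-one-out values passed, up to 0.0481. YB was 2.27-fold higher than AB, at 1.18 ± 0.10 (adjusted p = 8.48e-06), against 0.82 with YB replicate 2 (adjusted p = 0.0779). The sham difference of 0.19 ± 0.09 did not pass (adjusted p = 0.197), although all YS mice lay above all AS mice, as in 15.7% of all tested genes.

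A list of oxidative and slow fibre genes, which also holds the fast type IIx myosin gene Myh1, moved with Fndc5 in adult burn and in the interaction. It did not do so between the sham groups. The 12 genes of this list summed to 3100 to 4120 CPM in AS, 1680 to 1990 in AB, 2400 to 3220 in YS, 3750 to 4020 in YB and 1670 in YB replicate 2. Of these sums Myh1 averaged 960 CPM in AS and 437 in AB. No gene of the list was at 0. In AB against AS 6 of 12 fell and 0 rose, where 0.909% of all genes passed. Among them were the fast oxidative myosin heavy chain Myh2 (-1.54 on the log2 scale), Myh1 (-1.14) and the fatty acid binding protein Fabp3 (-0.70). The list median was -0.96, against 0 for all genes. The interaction called 4 of 12, all higher (Myh2, Myh1, Casq2 and Fabp3), against 0.0949% of all genes, with a list median of 1.18. With all 12 libraries edgeR called 0 of 12 in both tests, with 10 and 4 at an unadjusted p under 0.05, while DESeq2 called 2 and 1. The medians were then -0.96 and 0.83. In YS against AS of the 11 libraries the list median was -0.27, with 1 of 12 higher and 2 lower, while Fndc5 was at 0.19. The part of fibre type in the Fndc5 change was not tested.

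**Figure D3:**
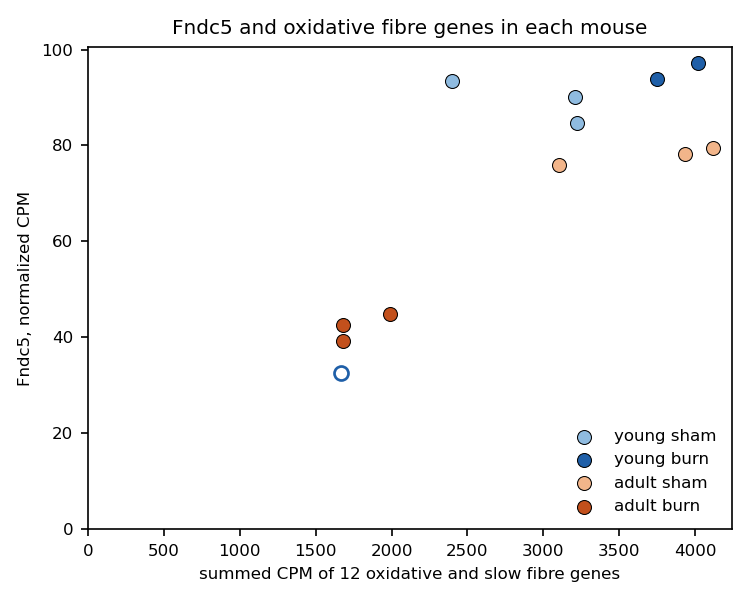
Fndc5 (vertical axis, normalized CPM) against the summed CPM of the list of 12 oxidative and slow fibre genes, Myh1 among them (horizontal axis). Points are mice, coloured by group, with YB replicate 2 as the open circle. The 3 AB mice (39.2 to 44.8 CPM of Fndc5) and YB replicate 2 (32.5) lie together at the low end of both axes, apart from the other 8 mice.

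Metrnl (ENSMUSG00000039208.15, chr11:121701544-121716306) encodes meteorin-like, a secreted factor of muscle, fat and immune cells. It had 20, 16.6 and 12.2 CPM in YS, 19.5 and 21.5 in YB, 13.2, 14 and 14.6 in AS, and 15.6, 12.5 and 8.72 in AB. The YB mice lay above all adult mice, and YS overlapped AS. In 26.6% of all tested genes YB lay above AB without overlap. YB was 1.67-fold higher than AB, at 0.74 ± 0.22 (SE, adjusted p = 0.0278). The call ended with YB replicate 2, at 13 CPM (0.54, adjusted p = 0.154), and without YB replicate 1 (0.0972), YB replicate 3 (0.155), AB replicate 2 (0.0613) or AB replicate 3 (0.0904). A macrophage list of 8 genes summed to 520 to 879 CPM in YB and 372 to 496 in AB, against 292 to 404 in YS and 308 to 373 in AS. It was 638 in YB replicate 2, and none of the 8 was at 0. In YB against AB 6 of 8 were higher, against 11.2% of all tested genes. The part of these cells in the Metrnl difference was not tested.

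Il15 (ENSMUSG00000031712.10, chr8:82331632-82403222), a cytokine for lymphocytes that muscle also makes, passed no test in the 11 libraries. Its level was 5.36, 6.28 and 7.31 CPM in YS, 9.32 and 6.34 in YB, 8.69, 7.93 and 5.3 in AS, and 6.37, 2.17 and 2.97 in AB. The low AB values were those of replicates 2 and 3, while AB replicate 1 lay among the other groups. AB against AS was -0.91 ± 0.34 (adjusted p = 0.238), and -1.51 without AB replicate 1 (adjusted p = 0.0365). YB against AB was 1.02 ± 0.36 (adjusted p = 0.0581), and 1.62 without AB replicate 1 (adjusted p = 0.00592). Without the filter on low counts both passed (0.0368 and 0.00917). Over the fits that each leave out 1 library the 2 differences ran from -1.51 to -0.62 and from 0.70 to 1.62. YB replicate 2 had 4.38 CPM, and with all 12 libraries neither difference passed (adjusted p = 0.695 and 0.184).

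Over all tested genes far more passed between the ages than with burn (11.8% and 20.7% against 0.909% and 0.664%), and the counts of the other genes of the pathway stand beside those shares. Among 8 tested ligands, 1 rose in YS against AS, the inhibin alpha subunit Inha (1.08, adjusted p = 0.0283), and in YB against AB 2 were higher, Inha (1.65, adjusted p = 0.00282) and Tgfb2 (0.36, 0.0441), while 1, Inhbb, was lower. DESeq2 on the 11 libraries gave Inha an adjusted p of 0.052 between the sham groups and Tgfb2 one of 0.134. With all 12 libraries only the YB to AB difference of Inha passed (1.39, adjusted p = 0.0201). Of 9 tested receptors 0 passed between the sham groups in edgeR or DESeq2, with 1 at an unadjusted p under 0.05. The TGF-beta type II receptor Tgfbr2 was higher in YB than in YS (0.57, adjusted p = 0.0418, against 0.073 with all 12) and than in AB (0.42, adjusted p = 0.0166, against 0.0803 with all 12), where Acvr2a was lower.

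Extracellular binding inhibitors included Wfikkn2, a protein that binds myostatin and GDF11, which was lower in YS than in AS (-1.22, adjusted p = 0.00219) and lower in YB than in AB (-0.90, adjusted p = 0.0112), opposite in direction to Fst. Between the sham groups these 2 genes, of 10 tested, were the ones that passed, 1 in each direction. In YB against AB 4 of 10 were higher, namely Fst, biglycan (Bgn, 1.21, adjusted p = 0.000735) and the latent TGF-beta binding proteins Ltbp1 (0.50, 0.0306) and Ltbp4 (0.45, 0.0384), of which both Ltbp genes lost the call with all 12 libraries (0.128 and 0.2), and Ltbp1 in DESeq2 on the 11 (0.0515). The burn term called 1 of 10, fibromodulin (Fmod), which was lower (-0.93, adjusted p = 0.0479, against 0.0622 with all 12 and 0.0729 in DESeq2 on the 11) and which is also a tendon gene. A tenocyte list of 7 genes that holds Fmod summed to 463 to 485 CPM in YS, 153 to 286 in YB, 173 to 414 in AS and 163 to 274 in AB, with 207 in YB replicate 2. For the burn term 6 of its 7 genes were lower, or 4 with all 12 libraries, where 2.15% and 0.717% of all genes passed. None of the 7 was at 0, and their part in the Fmod change was not tested.

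Proteases that cut the ligand precursors or free the latent complex were 5 tested genes. Bmp1, which releases latent myostatin from its propeptide, was higher in YS than in AS (0.54, adjusted p = 0.00844) and in YB than in AB (0.69, adjusted p = 0.00216), both also with all 12 libraries. Its relative Tll1 rose in YB against YS (2.41 ± 0.49 SE, adjusted p = 0.044), on 39 counts in 2 YB mice and 9 in 3 YS mice, and did not pass with all 12 (0.0686). DESeq2 gave it no adjusted p. In YB against AB 3 of 5 were higher, Bmp1, Tll1 (1.27, adjusted p = 0.0369) and the proprotein convertase Pcsk5 (1.09, 0.00637), and Furin was lower (-0.55, 0.0159). Of these, Tll1 and Furin did not pass with all 12 (0.112 and 0.179).

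Within the SMAD list of 12 genes, Smad3, which carries the myostatin and activin signal to the nucleus, fell in AB against AS (-0.83, adjusted p = 0.0186). It averaged 82.2 ± 16.3 CPM (SD, n = 3) in AS and 46.3 ± 7.3 (n = 3) in AB, and did not pass with all 12 libraries (adjusted p = 0.685). It was the only one of the 12 that passed in this comparison. The endosomal SMAD anchor Zfyve9 and the SMAD phosphatase Ppm1a were lower in YS than in AS (-0.42, adjusted p = 0.02, and -0.36, 0.0392) and in YB than in AB (-0.40, 0.0284, and -0.47, 0.0124), where Smad4 was lower too (-0.43, 0.0189). With all 12 libraries Zfyve9 and Ppm1a did not pass in the sham comparison (0.173 and 0.147), nor Smad4 in that of the burned groups (0.0928). Of 7 tested genes that respond to SMAD2 and SMAD3, 0 passed in any of the 6 tests of the 11 libraries in edgeR or DESeq2, with 0 to 3 at an unadjusted p under 0.05 and list medians from -0.19 to 0.40.

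**Figure D4:**
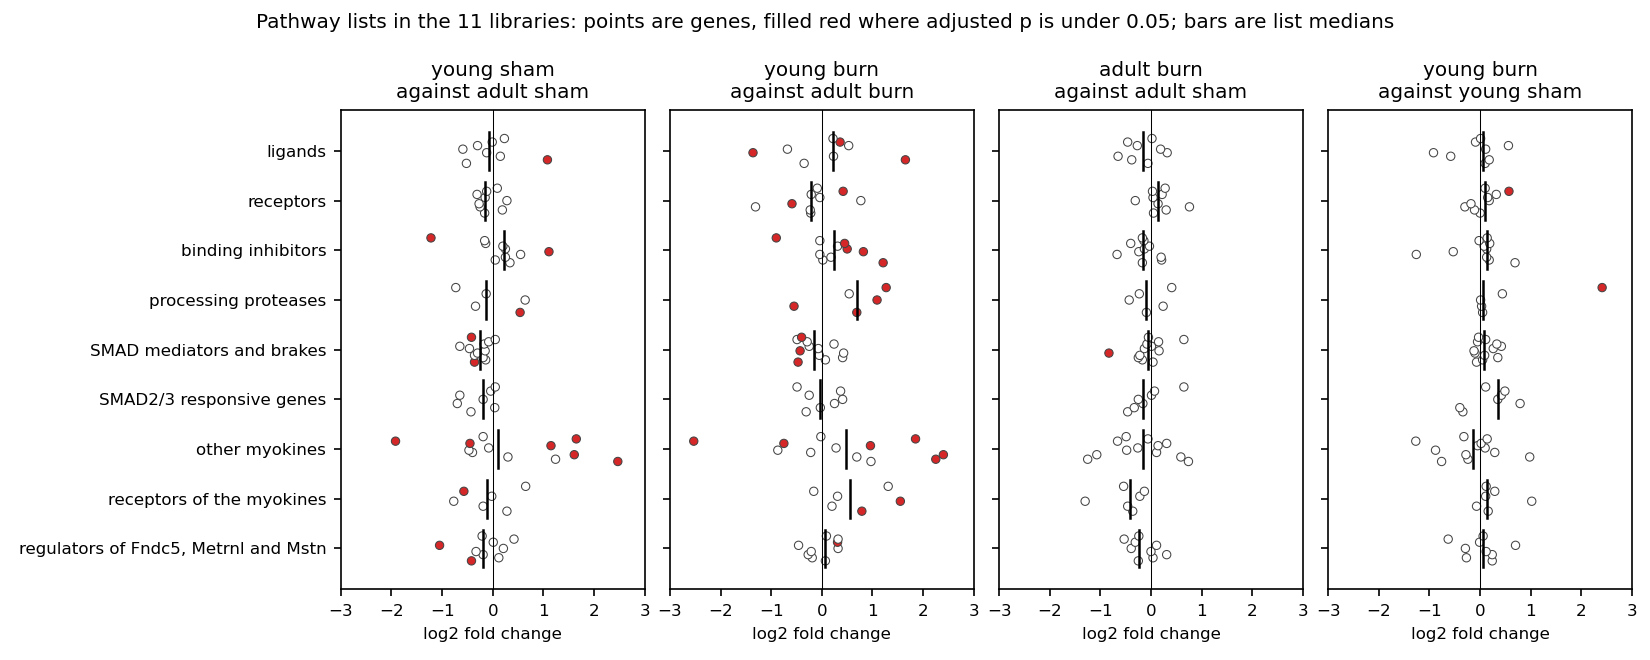
Log2 fold changes (horizontal axes) of the tested genes of 9 pathway lists in 4 comparisons of the 11 libraries. Points are genes, red where the adjusted p is under 0.05, and bars are list medians. Red points are many in both age comparisons, while adult burn has 1, Smad3 at -0.83, and young burn 2, Tgfbr2 at 0.57 and Tll1 at 2.41.

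Other myokines differed with age in both directions. Of 12 tested, 4 were higher and 2 lower in YS against AS. Those with the 4 smallest p were the matrix protein Sparc (1.65, adjusted p = 2.0e-05), the growth factor Igf1 (1.15, 0.000305), the lipase inhibitor Angptl4 (2.47, 0.000847) and, in the other direction, musclin (Ostn, -1.92, 0.00202). With all 12 libraries these 4 passed and the other two did not. In YB against AB again 4 were higher and 2 lower, with Sparc at 1.85, Igf1 at 0.96 (adjusted p = 0.000949), Ostn at -2.53 (0.00146) and Nampt at -0.75 (0.00511). In the 11 libraries 0 of the 12 passed for burn at either age in edgeR or DESeq2, with 3 at an unadjusted p under 0.05 at each age, and the list median was -0.16 in adults and -0.15 in young mice. DESeq2 on all 12 libraries called 1 in young mice and the median there was -0.31.

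Receptors of the myokines numbered 6 tested genes. The integrin subunit Itgb5 was lower in YS than in AS (-0.57, adjusted p = 0.0145, against 0.0599 with all 12), and in YB against AB the shared cytokine receptor chain Il2rg (1.55, 0.0326) and Dip2a, which has been described as a receptor of FSTL1 (0.79, 0.0177), were higher. DESeq2 called Dip2a (0.0268) and gave Il2rg no adjusted p. Among 9 genes that regulate Fndc5, Metrnl or Mstn, the myogenic factor Myod1 (-1.05, adjusted p = 0.016) and the nuclear receptor Esrra (-0.42, 0.0351, against 0.443 with all 12) were lower in YS than in AS, and the glucocorticoid receptor Nr3c1 was higher in YB than in AB (0.31, 0.0413, against 0.78 with all 12 and 0.0534 in DESeq2 on the 11). For burn within either age 0 of these 9 passed in edgeR or DESeq2, with 2 at an unadjusted p under 0.05 in adults and 1 in young mice.

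Among the genes whose levels followed Fndc5 most closely over the 11 libraries, by Pearson's r of log2 CPM over tested protein-coding genes, were Plekha4 (0.958), Itgb6 (0.955), Esr1 (0.948) and Pcdh12 (0.944). For Mstn they were Celf1 (0.953), Rnf144b (0.936), Stk35 (0.932), Cenpb (0.931) and R3hdm1 (0.925). These are among the highest of many genes over libraries that share groups, and they are given as a description only.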

How the data were processed

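The values are raw counts per gene of 12 mRNA libraries, 1 per mouse. The authors deposited these counts after mapping paired reads to GRCm38 with STAR (version 2.7.5c in the submitters' processing notes) and counting on Gencode M25 genes with its GeneCounts option, without normalization or a filter. The sources used here do not give the strand counted. Biotypes, coordinates and exon lengths came from Gencode M21, in which 260 genes had no match. The miRNA libraries were not used here.

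Counts were analysed with edgeR 4.0.16 under R 4.3.3. TMM factors, filterByExpr (at least 10 counts, total at least 15) and 1 mean per group were used on 11 libraries, without YB replicate 2. Tests were two-sided quasi-likelihood tests with Benjamini-Hochberg adjustment over 12651 genes. The burn term was tested in a model with age. DESeq2 1.42.0 and other settings are alternatives. CPM are normalized by TMM, and intervals of log2 changes are 95% intervals. Figures were drawn with matplotlib 3.10.9.

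The 10 genes and the gene lists were chosen with earlier results of these data known. All 10 were named whatever their values, together with list genes that passed, up to the 4 smallest p per list and comparison, and the 5 genes closest to Mstn and to Fndc5. One gene close to Fndc5 by this rule is not reported here. In simulated counts, edgeR found 94 of 103 genes changed by a log2 value of 1 in adult burn against adult sham among 12455 genes, and 59 of 108 for the interaction among 12473. These runs made 9 and 12 false calls. The changed genes were drawn above a floor on the expected count, so the shares found do not cover a gene as low as Inhbb. The mice were treated as unpaired across groups: the 15 same-numbered pairs of mice in different groups had correlations of deviations from -0.17 to 0.13, with 2 over 0.1.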

Additional observations from a re-analysis of the deposited data

Results flagged for a closer look

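The change of Fndc5 with burn differed between young and adult mice by 1.00 on the log2 scale, by the test of the interaction in 11 libraries (edgeR, adjusted p = 0.0118). With YB replicate 2 the difference was 0.62 (adjusted p = 0.744), and with the replicate number as a block in the 11 libraries it was 0.97 (adjusted p = 0.0507).

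In the library that the comparisons leave out, YB replicate 2, Inhbb stood at 3.65 CPM and Fst at 49.1 CPM, each above every young sham mouse, while the other YB mice had at most 1.43 CPM of Inhbb and 27.6 CPM of Fst.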

How the results depend on the processing

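The number of called genes moved by over 1.5 times in these settings. With all 12 libraries it was 1 in YS against AS, 0 in AB against AS, 3 in YB against AB and 0 for the interaction. Of all genes 3.76%, 0.00806%, 10.8% and 0% then passed. DESeq2 on all 12 libraries, chosen after seeing the data, gave 0 in AB against AS and 0 for the interaction, against 0.0887% and 0.00806% of all genes. Without the filter on low counts it was 2 in AB against AS and 1 for the burn term, against 2% and 2.85% of all genes. With DESeq2 on 11 libraries it was 0 for the interaction, against 0.419% of all genes. Its independent filtering left 7 of the 9 genes, Fndc5 among them, without an adjusted p. Without that filtering, also chosen after seeing the data, Fndc5 stood at 0.99 (adjusted p = 8.15e-05). Leaving out 1 library gave 1 to 2 called genes in AB against AS, where 0.199% to 1.28% of all genes passed. The number fell in YB against AB without YB replicate 1 or 3, and for the interaction without YB replicate 1, fits that leave 1 YB mouse. The other fits gave 4 to 8 in YB against AB, against 13.7% to 22.5% of all genes. For the interaction they gave 1, against 0.0318% to 0.247%. The named libraries are given beside each gene.

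The replicate block lowered the interaction to 0 called genes (Fndc5 at 0.97, adjusted p = 0.0507), against 0.0316% of all genes, and changed no other call of the 10 genes. The labels give no shared litter or day for the numbers, and 5 of 11 libraries correlated best with their own number in another group. Whether the numbers stand for a shared batch cannot be told from these values.

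Changes that did not pass turned direction as follows. In YS against AS, Inhbb ran from -0.27 to 0.10 over the fits that each leave out 1 library. In AB against AS these ranges were -0.07 to 0.49 for Mstn, -0.57 to 0.01 for Fst and -0.40 to 0.01 for Metrnl, and in YB against YS -0.10 to 0.29 for Mstn and -0.07 to 0.38 for Acvr2b. In the interaction they were -0.38 to 0.17 for Mstn and -0.56 to 0.04 for Fst. With all 12 libraries YB against YS gave -0.06 for Mstn, -0.28 for Acvr2b, -0.03 for Fstl1 and -0.26 for Fndc5, and DESeq2 on all 12 gave -0.05 for Mstn, -0.03 for Fstl1 and -0.26 for Fndc5. The interaction of Fst was 0.08 with all 12 libraries and 0.10 in DESeq2 on all 12, and that of Mstn was 0.10 under library size alone. Under library size alone the median of all genes was -0.13 in YS against AS, 0.16 in YB against YS and 0.18 in the interaction, where TMM gave 0, 0.01 and 0.01. The cause of these shifts was not tested. Depth limited Inhbb and Fstl3 most.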
